A study of Mus musculus with 23 samples.

Results

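The genes described here are 10 genes of the endothelium and of vessel growth: Vegfa, Kdr, Flt1, Pecam1, Cdh5, Tek, Tie1, Aplnr, Apln and Nos3. They were matched by symbol to the Ensembl gene IDs of the table of counts, where they make up 10 of 55573 genes, and all 10 passed the filter on low counts. Their RNA was followed in quadriceps, a thigh muscle, of 23 mice of the strain C57Bl6 (C57BL/6J in the methods) aged 8 to 10 weeks. The groups were 6 vehicle-treated females, 5 corticosterone-treated females, 6 vehicle-treated males and 6 corticosterone-treated males. Corticosterone, the main glucocorticoid of mice, reached treated mice over 14 days from an implanted slow-release pellet that held 50 mg of the hormone beside 50 mg of cholesterol. Pellets of vehicle-treated mice held 100 mg of cholesterol alone. All mice fasted for 5 hours before they were killed. The question was whether muscle of males and females responds differently to the hormone. A mouse is called by F or M and its number in the labels.

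Vessels of skeletal muscle are lined by endothelial cells, most of them in capillaries between the fibers. Vegfa is a growth factor that muscle fibers and other cells release, and it acts on the endothelial receptors encoded by Kdr (VEGFR2), which carries most of the growth signal, and Flt1 (VEGFR1), which binds the ligand tightly and in its soluble form acts as a decoy. Tek (Tie2) is the receptor for angiopoietins, which keep vessels quiescent or loosen them, and Tie1 is its partner. Apln encodes the peptide apelin, made by sprouting endothelium, and Aplnr encodes its receptor, a G protein-coupled receptor. Cdh5 (VE-cadherin) and Pecam1 (CD31) join endothelial cells to each other, and Nos3 makes nitric oxide, which widens vessels.

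The start sites of the genes that carry the results on ligands and receptors are shown as sequence, so that the DNA just before them can be seen beside their response. The table of RefSeq promoters on GRCm38.p6 held 6 of the 10 genes, with 2 start sites for Vegfa, and Pecam1, Cdh5, Aplnr and Nos3 were without an entry. Each line gives the 250 bases before the start site, 5′ to 3′ along the gene, and capitals mark the letters GGGCGG (a GC box) on either strand and the letters TATAAA. All 4 genes lie on the minus strand, Apln at chrX:48034854-48035103, Vegfa (first start site) at chr17:46032378-46032627, Flt1 at chr5:147726012-147726261 and Kdr at chr5:75978456-75978705.
Apln: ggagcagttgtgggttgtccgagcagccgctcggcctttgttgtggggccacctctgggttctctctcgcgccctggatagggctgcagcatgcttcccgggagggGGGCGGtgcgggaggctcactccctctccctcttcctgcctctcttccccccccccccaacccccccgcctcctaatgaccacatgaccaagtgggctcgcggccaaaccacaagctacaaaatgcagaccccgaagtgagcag
Vegfa: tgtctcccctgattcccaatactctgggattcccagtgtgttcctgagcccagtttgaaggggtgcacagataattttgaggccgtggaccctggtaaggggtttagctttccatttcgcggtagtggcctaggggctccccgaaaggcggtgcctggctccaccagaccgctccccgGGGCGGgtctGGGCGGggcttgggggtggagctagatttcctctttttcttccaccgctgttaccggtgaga
Flt1: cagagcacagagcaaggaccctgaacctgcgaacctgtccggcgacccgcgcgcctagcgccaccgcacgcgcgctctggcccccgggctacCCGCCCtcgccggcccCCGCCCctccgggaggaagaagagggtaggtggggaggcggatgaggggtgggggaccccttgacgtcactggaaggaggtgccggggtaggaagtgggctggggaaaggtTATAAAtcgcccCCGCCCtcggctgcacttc
Kdr: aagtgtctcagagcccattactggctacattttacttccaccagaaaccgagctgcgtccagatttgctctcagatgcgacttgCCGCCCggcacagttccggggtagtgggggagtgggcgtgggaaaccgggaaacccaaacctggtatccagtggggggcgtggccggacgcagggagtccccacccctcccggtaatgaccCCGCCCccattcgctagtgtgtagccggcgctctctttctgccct
Letters GGGCGG occurred on either strand in 5 of the 7 promoters of these genes and in 32.7% of the 32851 promoters in the table. The TATA box was found in 1 of the 7, that of Flt1, 31 bases before the start, and in 12.4% of all promoters. AGAACA, which makes up 1 side of the usual glucocorticoid response element, was in 1 of the 7 (Tek) and in 16.1% of all promoters. ACGTG is 1 form of the core to which hypoxia-inducible factors bind. It was in 1 of the 7 (the second start site of Vegfa) and in 16.6% of all promoters. The form GCGTG was not counted, and it occurs in the printed line of Kdr and, on the other strand, in that of Flt1. GGAA, the core of ETS factor sites, was in 7 of 7 and in 93.4% of all promoters, and the longer CCGGAAG was in 0 of 7 and in 6.91%. Such matches are letters in a window and not measured binding.

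Each mouse had between 20904150 and 21984477 counts on genes, a narrow span of depth. Levels are given as CPM, counts relative to the size of each library after scaling by normalization factors of 0.832 to 1.21. The 10 markers of endothelial cells, 6 of which are among the genes described here, were detected in every mouse, and none of them was at 0. Their summed level was 314 to 664 CPM in vehicle-treated females, 421 to 585 CPM in corticosterone-treated females, 346 to 576 CPM in vehicle-treated males and 349 to 493 CPM in corticosterone-treated males, so that all 4 groups overlapped. A sum joins markers that rose with markers that fell. The median log2 change of these 10 markers, corticosterone against vehicle, was -0.41 in males and -0.05 in females. For all genes tested it was -0.02 and 0.04. The overlap of the sums thus does not show that each marker kept its level. In bulk tissue, fewer cells of a type and less RNA per cell cannot be told apart. P-values here measure the spread between the mice of a group, which the labels list as separate animals.

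The levels of the 10 genes differed widely in vehicle-treated muscle. On a scale of CPM per kb of exon, over the 12 vehicle-treated mice of both sexes, Vegfa was highest with 42.3 ± 8.68 (SD, n = 12). Next came Cdh5 with 21.04 ± 5.53, Pecam1 with 14.1 ± 2.80, Tie1 with 8.95 ± 2.37 and Tek with 7.06 ± 1.26. Lower still were Aplnr with 5.41 ± 2.09, Kdr with 5.31 ± 1.35, Flt1 with 4.37 ± 0.885, Nos3 with 3.45 ± 0.956 and Apln with 0.977 ± 0.377. Only the step from Vegfa to Cdh5 and the step from Nos3 to Apln exceeded the sum of the SDs of both genes. These SDs are between mice, while all 10 genes were read in the same mice. Inside each of the 12 mice, Cdh5 lay above Pecam1 and Pecam1 above Tie1. Steps inside a mouse were not tested.

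Between vehicle-treated males and females, no difference in the 10 genes passed the threshold. The log2 difference of males minus females ran from -0.19 for Pecam1 to 0.24 for Vegfa, and 0 of 10 genes passed an adjusted p of 0.01 by edgeR's quasi-likelihood test, against 0.958% of all genes tested. At an unadjusted p below 0.05 the count was also 0, against 13.2% of all genes. DESeq2 and limma-voom called 0 as well, where they called 2.18% and 1.43% of all genes. The 95% interval of the difference ran from -0.12 to 0.61 for Vegfa and from -0.79 to 0.62 for Aplnr, so that moderate differences between the sexes lie within it.

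Corticosterone lowered the apelin pair in both sexes. Vehicle-treated males had 9.57 to 30.2 CPM of Aplnr (median 18.9), and corticosterone-treated males 0.474 to 1.46 CPM (median 0.863). Vehicle-treated females had 10.5 to 36.4 CPM (median 18.3), and the 5 corticosterone-treated females had 0.818, 0.929, 1.72, 2.86 and 5.35 CPM. Every treated mouse therefore lay below every vehicle-treated mouse of its sex, with female F4 nearest to the controls. The receptor was 22.4-fold lower in males, a log2 fold change (log2FC) of -4.48 ± 0.44 (SE, edgeR adjusted p = 1.66e-07, n = 6 and 6), and 8.84-fold lower in females, a log2FC of -3.14 ± 0.43 (adjusted p = 3.87e-05, n = 6 and 5).

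The ligand apelin is a low-abundance transcript and moved the same way. Vehicle-treated males had 1.93 to 4.02 CPM of Apln (median 2.998), and corticosterone-treated males 0.0883 to 0.332 CPM (median 0.191), from 2 to 7 counts per mouse. Vehicle-treated females had 0.782 to 5.28 CPM (median 3.05), and the 5 corticosterone-treated females had 0.455, 0.530, 0.591, 0.889 and 1.07 CPM. The male groups were apart, and in females only F9, the vehicle-treated mouse with the least Apln, fell among the treated ones. The log2FC was -3.84 ± 0.41 in males, 14.3-fold lower (edgeR adjusted p = 4.36e-07), and -2.13 ± 0.37 in females, 4.39-fold lower (adjusted p = 3.74e-04). Both genes passed the threshold in both sexes under all 36 alternative settings.

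**Figure D1:**
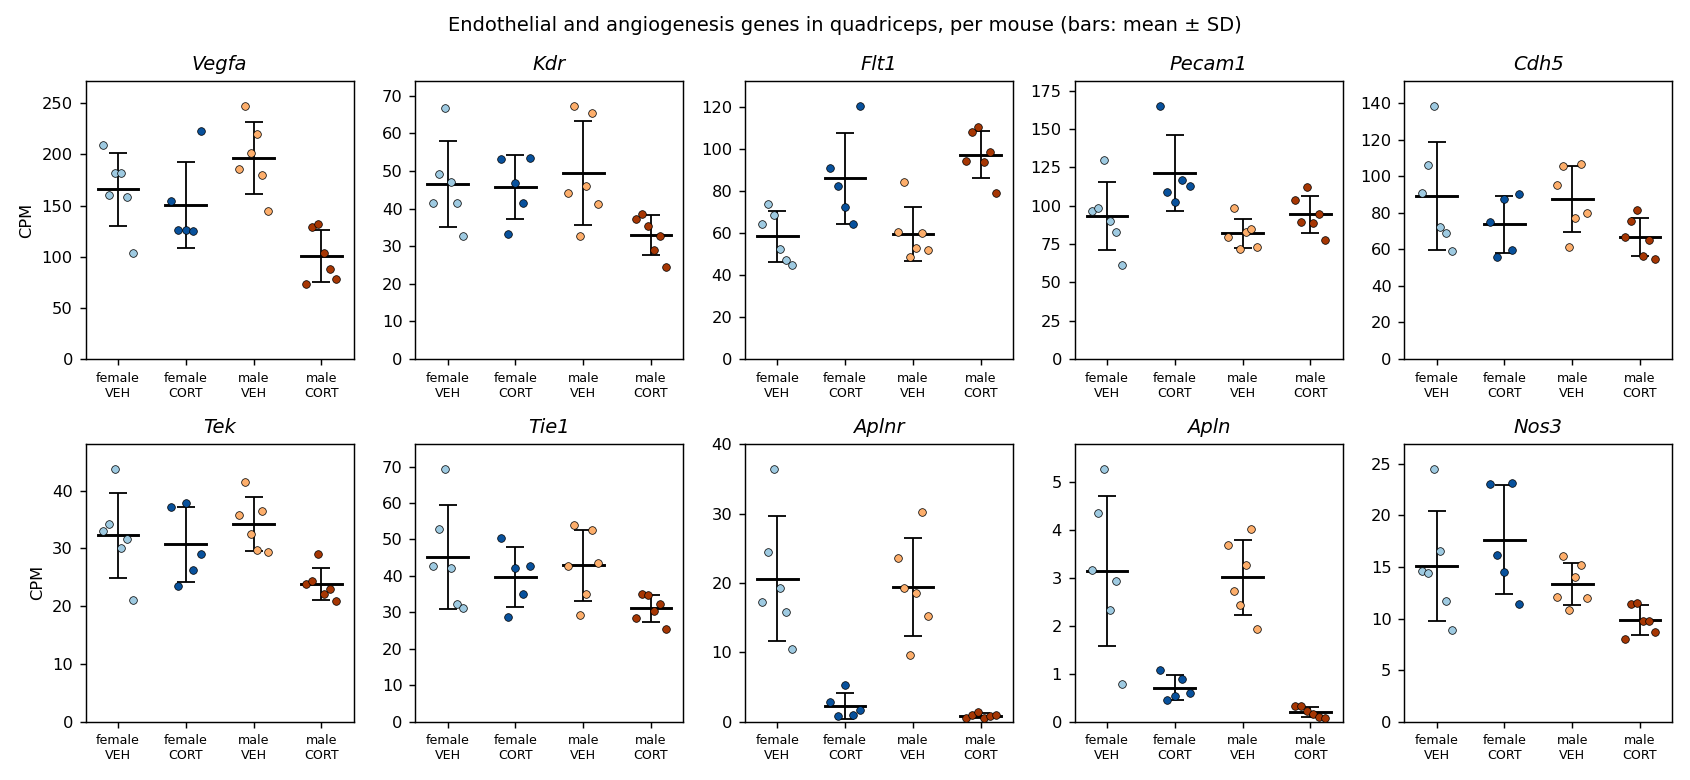
CPM of each of the 10 genes (y axis, from 0) in every mouse of the 4 groups (x axis, VEH for vehicle and CORT for corticosterone), with bars for the mean and SD. Aplnr and Apln drop in both sexes, to at most 1.46 and 0.332 CPM in treated males, Vegfa and Tek drop in males without overlap, and Flt1 rises in males.

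Of the VEGF system, the ligand gene Vegfa fell in males and the receptor gene Flt1 rose. The counts are per gene and do not separate the soluble form of Flt1 from the membrane receptor. Vegfa was at 145 to 247 CPM in vehicle-treated males (median 194) and at 72.9 to 132 CPM in corticosterone-treated males (median 95.5). All treated males were below all vehicle-treated males, and the level fell by 48.8%, a log2FC of -0.97 ± 0.19 (edgeR adjusted p = 3.27e-04). In females, vehicle-treated mice had 104 to 209 CPM (median 171), and treated mice had 125, 126, 127, 154 and 223 CPM, with F8 above all vehicle-treated females. The female log2FC was -0.14 ± 0.19 (adjusted p = 0.643) and did not pass, with a 95% interval from -0.52 to 0.24.

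Flt1 was the 1 gene of the 10 whose rise in males passed the threshold. It was at 48.5 to 84.2 CPM in vehicle-treated males (median 56.4) and at 78.9 to 110 CPM in treated males (median 96.3). The groups overlapped only through M11, the highest vehicle-treated male, and M8, the lowest treated male. Flt1 was 63.2% higher in treated males, a log2FC of 0.71 ± 0.16 (edgeR adjusted p = 0.00120). Vehicle-treated females had 44.6 to 73.6 CPM (median 58.5), and treated females had 64.2, 72.3, 82.3, 90.9 and 120 CPM. The female log2FC was 0.56 ± 0.16 with an adjusted p of 0.0152, short of the threshold in edgeR, while all 5 treated females lay above the mean of the vehicle-treated ones. DESeq2 gave an adjusted p of 0.00697, and edgeR without the male M11 gave 0.00906, both past the threshold.

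Kdr, the main signalling receptor, did not pass by edgeR in either sex. In males its log2FC was -0.59 ± 0.18 (edgeR adjusted p = 0.0122), with 32.8 to 67.2 CPM in vehicle-treated mice (median 45.0) and 24.5 to 38.7 CPM in treated mice (median 34.0). All 6 treated males lay below the mean of the vehicle-treated males, but the ranges overlapped. DESeq2 gave an adjusted p of 0.00586 and limma-voom 0.00815 (log2FC of -0.54), and leaving out F3, F9 or M3 in edgeR gave 0.00779, 0.00949 and 0.00433, so the call for Kdr in males turned on these choices. In females the log2FC was -0.03 ± 0.19 (adjusted p = 0.934), with 32.7 to 66.7 CPM in vehicle-treated mice and 33.2 to 53.5 CPM in treated mice.

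The balance between ligand and receptors was followed inside each mouse as a ratio of levels per kb. Flt1 over Kdr was 0.614 to 0.988 in vehicle-treated males and 1.69 to 2.16 in treated males, without overlap. Among females it was 0.686 to 1.04 in vehicle-treated mice and 1.03, 1.03, 1.15, 1.503 and 1.66 in treated mice, so that 2 treated mice lay within the vehicle-treated range. The ratio rose by 1.28 on the log2 scale in males (exact permutation test, two-sided, p = 0.00216, the smallest that 924 regroupings allow, 0.00866 after Benjamini-Hochberg adjustment over 8 comparisons) and by 0.56 in females (exact permutation p = 0.00866, adjusted 0.0173).

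Vegfa over Flt1 moved the other way and fell from 10.6 ± 1.98 (SD, n = 6) in vehicle-treated males to 3.23 ± 0.543 (n = 6) in treated males, and from 9.06 ± 1.76 (n = 6) to 5.53 ± 0.506 (n = 5) in females. Treated females had 4.81, 5.34, 5.51, 5.83 and 6.14, all below the 6.87 to 10.9 of vehicle-treated females, and treated males at 2.44 to 3.78 were all below the 8.85 to 13.1 of vehicle-treated males. The log2 change was -1.71 in males and -0.69 in females, with adjusted exact permutation p-values of 0.00866 and 0.0115. Vegfa over Kdr changed by -0.43 in males (exact permutation p = 0.0758) and by -0.13 in females (exact permutation p = 0.459), and Tek over Tie1 by -0.08 and 0.09 (exact permutation p = 0.563 and 0.483), none of which passed. Whether the ratios changed more in males than in females was not tested, and the ratios were chosen after their genes' values had been seen.

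**Figure D2:**
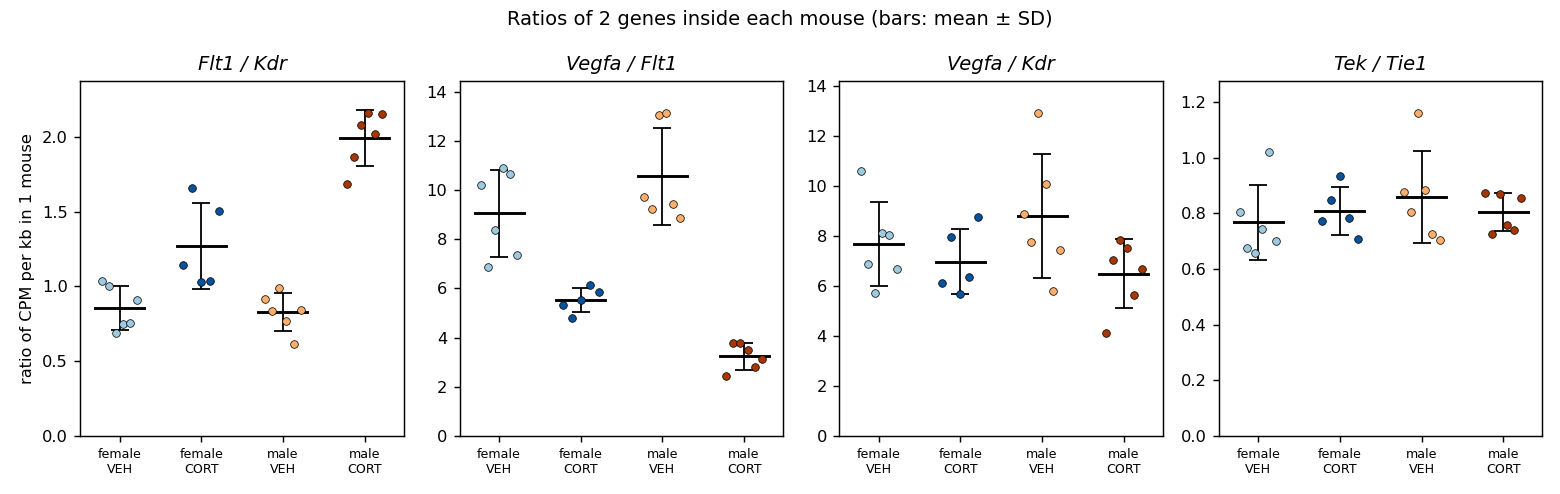
Ratios of CPM per kb of 2 genes inside each mouse (y axis, from 0) for the 4 groups (x axis), with bars for the mean and SD. Flt1 over Kdr is 1.69 to 2.16 in treated males and at most 1.04 in vehicle-treated mice of both sexes, while Tek over Tie1 overlaps between all groups.

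Of the angiopoietin receptors, Tek fell in males. It was at 29.4 to 41.6 CPM in vehicle-treated males (median 34.2) and at 20.9 to 29.1 CPM in treated males (median 23.4), so that the groups just failed to overlap. Tek dropped by 30.3%, a log2FC of -0.52 ± 0.14 (edgeR adjusted p = 0.00616). This call was the least firm of the 5 in males: leaving out any 1 of M1, M4, M6, M7, M8, M10, M11 or M12 gave adjusted p-values of 0.0115 to 0.0187, and edgeR without a gene filter gave 0.0125. A fit with the level of 16 endothelial genes other than these 10 as a covariate gave a log2FC of -0.27 (adjusted p = 0.0754). The female log2FC of Tek was -0.07 ± 0.15 (adjusted p = 0.762).

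Tie1 had a log2FC of -0.46 ± 0.18 in males (edgeR adjusted p = 0.0454) and -0.18 ± 0.19 in females (adjusted p = 0.505). The junction gene Cdh5 had -0.39 ± 0.19 in males (adjusted p = 0.0954) and -0.27 ± 0.19 in females (adjusted p = 0.315). Pecam1, the other junction gene, had 0.21 ± 0.14 in males (adjusted p = 0.261) and 0.38 ± 0.15 in females (adjusted p = 0.0618). Neither Tie1 nor Cdh5 nor Pecam1 passed in a sex, and their vehicle-treated and treated ranges overlapped. Pecam1 passed in males with the endothelial covariate, where its log2FC was 0.50 (adjusted p = 1.61e-04). Nos3 had -0.44 ± 0.20 in males (adjusted p = 0.0837) and 0.22 ± 0.21 in females (adjusted p = 0.447), and it too did not pass against vehicle.

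**Figure D3:**
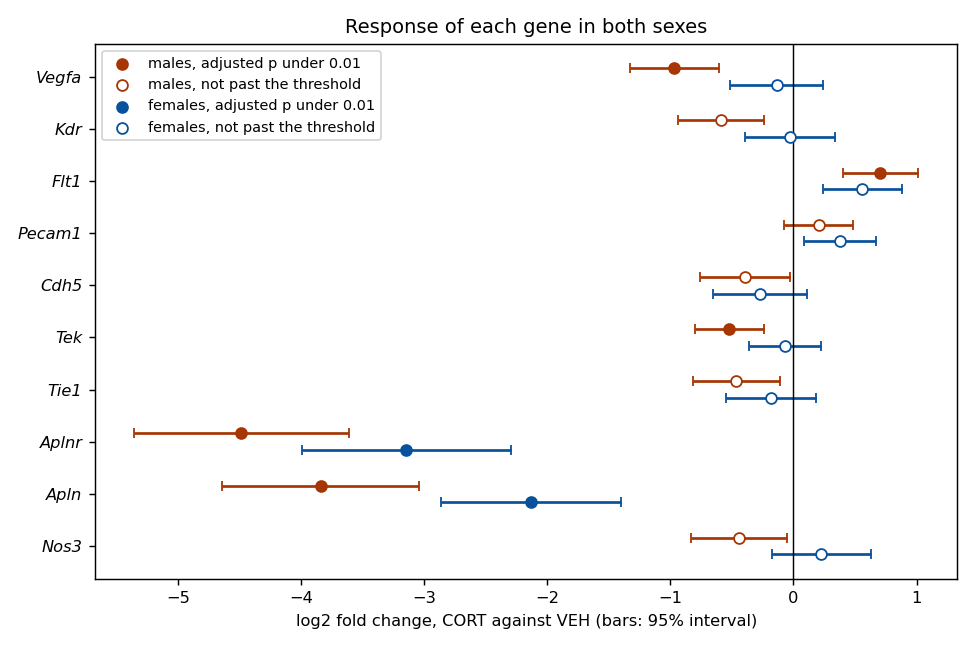
Log2 fold change of corticosterone against vehicle (x axis) for each gene (y axis) in males and females, with 95% intervals. Filled points passed an adjusted p of 0.01, which 5 genes did in males and 2 in females, and the fall of Aplnr and Apln stands far from the other 8 genes.

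In counts, 5 of the 10 genes passed in males, against 26.3% of all genes tested. Among these, 1 rose, against 13.2% of all genes, and 4 fell, against 13.1%. In females Apln and Aplnr passed, 2 of 10, against 13.4% of all genes. Treated males lay wholly below vehicle-treated males in 4 of 10 genes, against 11.1% of all genes, and treated females below vehicle-treated females in 1 of 10 (Aplnr), against 4.34%. The median log2FC of the 10 genes was -0.49 in males, where that of all genes was -0.02, and -0.10 in females, where that of all genes was 0.04.

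The difference between the sexes in the response was tested directly. Of the 10 genes, 0 passed the test of the interaction of sex and treatment by edgeR's quasi-likelihood test, against 0.690% of all genes. DESeq2 and limma-voom also called 0, where they called 6.87% and 5.31% of all genes. At an unadjusted p below 0.05 the count was 6 of 10, against 32.1% of all genes. Nearest to the threshold were Apln, whose log2FC was lower in males by 1.71 on the log2 scale (difference of -1.71 ± 0.55, adjusted p = 0.0442), and Vegfa, with a difference of -0.83 ± 0.27 (adjusted p = 0.0444). The response of Aplnr differed by -1.34 ± 0.58 (adjusted p = 0.118) and that of Flt1 by 0.15 ± 0.23 (adjusted p = 0.675).

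Treated males and treated females were also compared with each other. By edgeR's test 2 of 10 genes passed, Apln and Nos3, against 23.3% of all genes. Apln was lower by 1.77 on the log2 scale (log2 difference of -1.77 ± 0.44, adjusted p = 0.00376), and all treated males lay below all treated females, as held for 5.55% of all genes. Nos3 was at 7.97 to 11.5 CPM in treated males (median 9.79) and at 11.4, 14.5, 16.2, 23.1 and 23.1 CPM in treated females, with only F8 inside the male range. Its log2 difference was -0.84 ± 0.21 (adjusted p = 0.00332).

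These calls between treated mice rested on few animals. Without F6 or without F10 both were lost, the log2 difference being -1.66 and -1.54 for Apln and -0.71 and -0.70 for Nos3. Calls over all genes fell as well, from 3043 of 13049 to 2004 of 12921 without F6 and 1866 of 12922 without F10. Without M6 or M8 the call of Apln was lost (-1.64 and -1.61), where 2561 of 13008 and 2565 of 12989 genes passed. With the endothelial covariate the differences were -0.72 for Apln (edgeR adjusted p = 0.339) and -0.07 for Nos3 (adjusted p = 0.814). The covariate, a mean log2 CPM, ran from 3.98 to 4.41 in treated males and from 4.51 to 5.14 in treated females. As it did not overlap between these groups, this fit cannot tell a difference in these genes from that in the covariate. This covariate lowered the share of all genes called from 23.3% to 0.835%, so that the loss was not particular to these genes. With the number of the mouse as a block, Nos3 had -0.85 (adjusted p = 0.0139), a difference as large as before but no longer a call. Summed adipocyte markers reached 5755 CPM in F6, the highest treated female, and summed hepatocyte markers 2468 CPM in F10 and 2531 CPM in M8, the highest of their groups. With an adipocyte marker score as a covariate Nos3 had -0.66 (adjusted p = 0.0220). With a hepatocyte marker score as the covariate instead, Apln and Nos3 both kept their calls, where 23.4% of all genes passed.

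Markers of other cell types moved with treatment as well. Of 6 fibroblast markers, 4 fell in males and 2 in females, with none at 0 in any mouse. Their summed level was 853 to 1228 CPM in vehicle-treated males against 348 to 508 CPM in treated males, and 788 to 1569 CPM in vehicle-treated females against 529 to 1014 CPM in treated females. Of 5 erythrocyte markers, 4 rose in both sexes, and of 8 adipocyte markers 1 rose in males and 2 in females. Treated females had adipocyte marker sums of 558 to 5755 CPM, vehicle-treated females 353 to 2166 CPM, treated males 786 to 1218 CPM and vehicle-treated males 217 to 916 CPM. Pericyte and smooth muscle markers summed to 620 to 1038 CPM over all mice, with 1 of 10 falling in males and 0 in females. Of 5 satellite cell markers, 1 rose and 1 fell in males and 3 fell in females. Between treated males and treated females, 5 of 7 macrophage, 4 of 5 Schwann cell, 5 of 6 fibroblast and all 3 tested platelet markers were lower in males. In that comparison 23.3% of all genes passed. Endothelial, muscle fiber, slow fiber, adipocyte, hepatocyte and erythrocyte markers had 0 calls there. Pericyte and smooth muscle markers, like satellite cell markers, had 1 lower and 1 higher in males. The part of these cell types in the results above was not tested, apart from the fits with covariates.

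Across the 23 mice, most of the endothelial genes moved together. After subtraction of group means, the correlation of a gene's log2 CPM with the mean of the other endothelial genes among the 10 was 0.932 for Tie1, 0.903 for Cdh5, 0.874 for Kdr, 0.862 for Tek and 0.813 for Pecam1. It was lower for Flt1 (0.664), Aplnr (0.662) and Nos3 (0.603). The 5 other genes most like the mean of these 8 genes were Ptprb (r = 0.944), which encodes the phosphatase of Tek, Sdc3 (0.927), Arap3 (0.925), Elk3 (0.916) and She (0.916). None of these 5 passed the threshold in either sex. All genes were read from the same libraries, so that these values share the depth and the tissue makeup of each mouse. Female F9 had the lowest summed endothelial markers of the vehicle-treated females and the highest summed fiber markers (184230 CPM), and F3 had the highest endothelial and the lowest fiber sum (131313 CPM).

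Both ligands followed the endothelial genes from mouse to mouse. Vegfa correlated with the mean of the 8 endothelial genes with a Pearson r of 0.558 (permutation test, two-sided, p = 0.00528 over 23 mice) and a Spearman rho of 0.564 (permutation p = 0.00572). The r was 0.5263 within males and 0.590 within females, and 0.456 without F3 and F9, the mice farthest from the median. Without F9 alone r was 0.415 (permutation p = 0.0554), past the threshold of 0.05 no longer. Apln had an r of 0.701 (permutation p = 2.30e-04) and a rho of 0.608 (permutation p = 0.00234), with 0.462 within males, 0.824 within females and 0.492 without F3 and F9. Adjusted over the 2 relations, the p-values of r were 0.00528 and 4.60e-04. The permutations shuffled all 23 values freely although the means of 4 groups had been subtracted, so the p-values are somewhat too small. Both ligands were read from the same libraries as the endothelial genes, and Apln is itself made by endothelium. The values of r therefore also hold the tissue makeup of each mouse. The labels give no batch within which the relations could be recomputed.

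**Figure D4:**
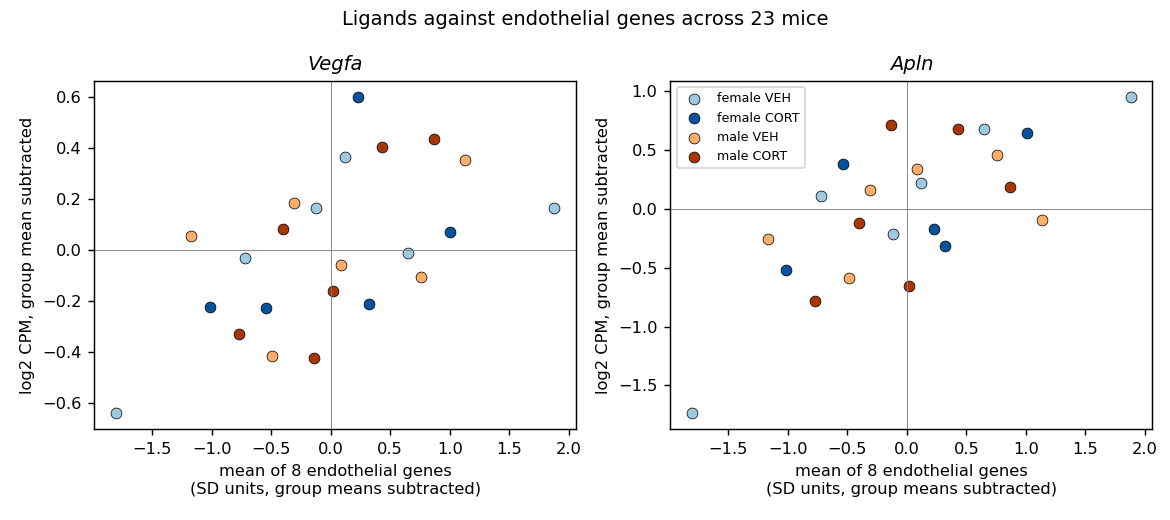
Log2 CPM of Vegfa and of Apln (y axes) against the mean of the 8 endothelial genes in units of SD (x axes), each with the group mean subtracted, 1 point per mouse and 1 colour per group. Both rise from left to right, with r = 0.558 and 0.701 over 23 mice.

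The neighbouring genes of these pathways came from 15 lists with 142 genes, of which 131 were tested. In males 10 of them rose and 16 fell, 19.8% of those tested, and in females 10 rose and 0 fell, or 7.63%. These shares lie below the 26.3% and 13.4% of all genes. Interaction tests by edgeR called 0 of the 131, with 35 at an unadjusted p below 0.05, as 32.1% of all genes had. In females, 14 of the listed genes were lower at an unadjusted p below 0.05. The share of all genes for that count was not computed. Between treated males and females, 29 were lower and 1 was higher in males (Hif1an, 0.52), or 22.9%, where 23.3% of all genes were called. The median log2FC of the listed genes was -0.25 in males and 0.07 in females.

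Ligands and receptors of the VEGF family held calls in both directions. Of 7 tested, 3 fell and 1 rose in males, and 1 rose in females. Vegfc, the ligand of lymphatic growth, had a male log2FC of -1.20 ± 0.24 (edgeR adjusted p = 5.63e-04), Vegfb -0.66 ± 0.15 (adjusted p = 0.00161) and the co-receptor Nrp1 -0.62 ± 0.14 (adjusted p = 0.00126). Vegfd rose in both, by a log2FC of 0.90 ± 0.23 in males (adjusted p = 0.00368) and 1.11 ± 0.24 in females (adjusted p = 0.00173). Of the partners of Tek and Aplnr, 3 were tested, and Angpt2, an angiopoietin that loosens vessels, fell in males with a log2FC of -0.84 ± 0.23 (adjusted p = 0.00574).

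Of 16 endothelial identity genes, 3 fell and 1 rose in males, and 1 rose in females. Those that fell were the adhesion molecule Icam2 (log2FC of -0.88), Ecscr (-0.75) and Clec14a (-0.66). In females Cav1, a caveola protein that adipocytes also make, rose by a log2FC of 0.97. Adgrf5, named after its value was seen, rose in males (0.55). Among 12 endothelial transcription factors, Lyl1 (-0.87) and Ets1 (-0.87) fell and Gata2 (0.72) rose in males. In females 0 of 12 passed by edgeR, with 5 at an unadjusted p below 0.05. At least 26.7% of all genes had such a p in females, as that share passed an adjusted p of 0.05. Ets1 had a female log2FC of -0.57 (edgeR adjusted p = 0.0163).

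Among genes of vessel tone, Ddah2 (log2FC of -1.10), which clears an inhibitor of nitric oxide synthases, and the neuronal synthase Nos1 (-0.68) fell in males. In females Edn1, which encodes the vasoconstrictor endothelin, rose with a log2FC of 0.98, and in males the lipid receptor S1pr1 rose with 0.64. Notch genes (9 tested), genes of sprouting and tip cells (7 tested) and BMP9 and ALK1 signalling (7 tested) had no gene past the threshold in either sex by edgeR. At an unadjusted p below 0.05 they held 2, 3 and 4 genes in males and 5, 2 and 1 in females. At least 39.8% of all genes in males and 26.7% in females had such a p, as those shares passed an adjusted p of 0.05. These counts are therefore not read as a result about the lists. Of 11 angiogenesis inhibitors, only Serpinf1, which encodes PEDF, passed, and it fell in males (-1.55).

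Of 13 genes of oxygen sensing and control of Vegfa, Hif3a, a subunit with inhibitory splice forms, rose most, by a log2FC of 3.67 ± 0.45 in males (edgeR adjusted p = 2.45e-06) and 4.43 ± 0.50 in females (adjusted p = 5.53e-06). The prolyl hydroxylase Egln3 rose in males (1.88), whereas the hypoxia target Ankrd37 (-1.10) and the nuclear receptor Esrra (-0.65), a driver of Vegfa in muscle, fell in males. Hif1a, Epas1 and Vhl did not pass in either sex.

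By vessel type, most calls among capillary genes were rises. Of 10 capillary genes, 2 rose and 1 fell in males, and 4 rose in females. Rgcc had a log2FC of 1.69 in males and 2.29 in females, the carbonic anhydrase Car4 0.80 and 0.87, and in females Timp4 1.79 and the fatty acid carrier Cd36, which adipocytes also make, 1.39. Among treated females the summed capillary genes were highest in F6 (4952 CPM) and lowest in F8 (1779 CPM). Summed adipocyte markers were also highest in F6 (5755 CPM) and lowest in F8 (558 CPM). The part of adipocytes in the rises of capillary genes was not tested. Meox2, named after its value was seen, fell in males (-0.82). The arterial Sema3g rose (0.75) and the venous Ackr1 fell (-1.37) in males, each as the sole call among 7 and 6 tested genes. Of 5 lymphatic genes, Reln rose in males (0.99), and Lyve1 (2.22), which some macrophages also carry, and Mmrn1 (2.33) rose in females.

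**Figure D5:**
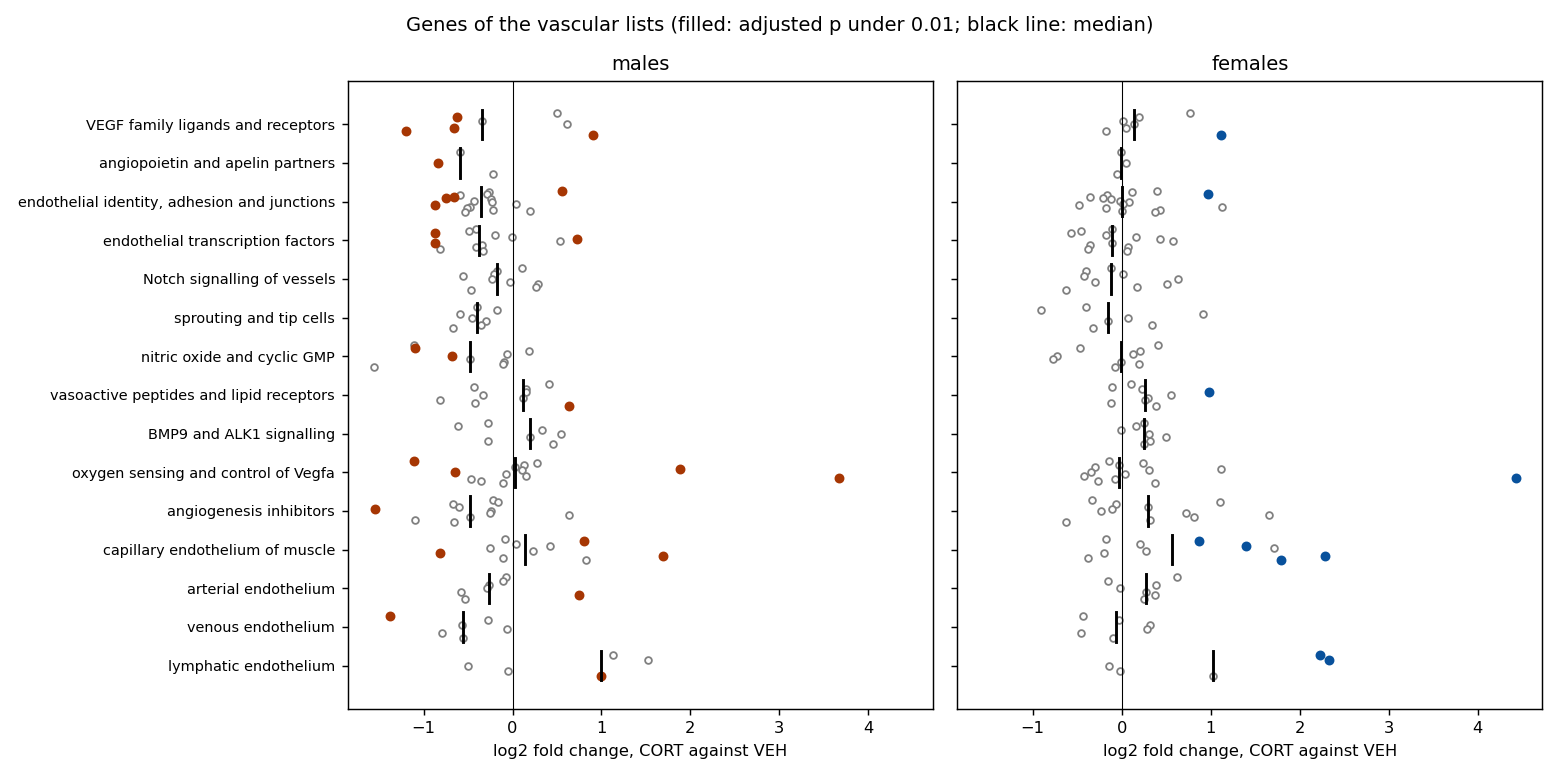
Log2 fold change of corticosterone against vehicle (x axes, males left, females right) of each tested gene in the 15 lists (y axis), filled where the adjusted p was under 0.01, with the median of each list as a line. In females the 10 filled points all lie to the right of 0, and in males 16 of the 26 lie to the left.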

How the data were processed

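RNA of quadriceps from 23 mice was isolated, enriched for mRNA, and sequenced as stranded libraries of paired reads of 100 bases. The submitters' processing notes name STAR 2.7.3a, HTSeq 0.12.4 and mm10, and the methods of the study name Ensembl release 97. The authors deposited raw counts of read pairs per gene and mouse, without normalization. The 5 summary entries for reads not on 1 gene held 10.7% to 15.3% of all read pairs and entered neither library sizes nor tests. Names, positions and exon lengths came from GENCODE M21 on GRCm38, which matched 55480 of the gene IDs. Overlapping genes of the 10 genes lay on the opposite strand and held few counts. No replicates agreed within sampling noise (lowest chi-square per degree of freedom 13.2).

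The main test, in R 4.3.3, used edgeR 4.0.16 (quasi-likelihood test, TMM, 1 mean for each of 4 groups), with limma 3.58.1 and DESeq2 1.42.0 as alternatives. The filter asked for more than 20 normalized counts in 4 or more mice of some group and kept 13049 genes, with Benjamini-Hochberg adjustment over all of them and a threshold of 0.01. CPM were scaled by TMM factors, and log2 CPM used a prior count of 1. A count of 3 corresponds to at most 0.166 CPM. Ratios were compared by exact permutation tests, and relations by permutation tests with 100000 resamples. On simulated counts of 13050 genes with 200 changed per sex, edgeR recovered 81.5% in males, 80.5% in females and 70.2% of 399 differing responses. These shares hold for the sizes of change that were simulated and were not split by size. They therefore do not give the chance of a call for a gene described above, such as one that did not pass.

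Samples were grouped by sex and treatment in the labels. The 10 genes, the lists of neighbouring genes and the markers of cell types were chosen with earlier results of these data known. From each list, up to 4 genes past the threshold with the largest log2FC in either sex are named, and the 5 genes most like the endothelial genes. Ccl21a was not tested because its symbol matched more than 1 gene ID. Promoter sequences came from RefSeq on GRCm38.p6, read with Python 3.11.15. The alternatives were DESeq2, limma-voom, the median of ratios, other filters and thresholds, covariates for endothelial, adipocyte and hepatocyte genes, each sex alone, a block on the number of the mouse, and 23 fits without 1 mouse. The ratios and the fits without M8 and F10 or without F3 and F9 were chosen after seeing the data.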

Additional observations from a re-analysis of the deposited data

Results flagged for a closer look

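In 3 of 76 sets of 5 or 6 values checked (the genes, their ratios and 5 marker sums in each group), 1 mouse lay far from the rest of its group by Dixon's test, which chance alone does in about 1 of 20 sets. Flt1 was at 84.2 CPM in the vehicle-treated male M11, where the other vehicle-treated males had 48.5 to 60.4 CPM. Pecam1 was at 165 CPM in the corticosterone-treated female F10, where the other treated females had 103 to 117 CPM. The summed hepatocyte markers were at 1498 CPM in the vehicle-treated male M9, where the other vehicle-treated males had 16.3 to 312 CPM.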

How the results depend on the processing

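Of 1800 recomputed values of the 10 genes in the 5 comparisons, 1704 kept their direction and their side of the threshold. Aplnr and Apln kept their calls against vehicle in both sexes under all 36 alternatives, and Vegfa and Flt1 in males under all but the added limit of 1 on the log2FC. That limit left 2 of 5 genes in males and 1 of 2 between treated males and females. Over all genes it left 7.53% in males, from 26.3%, and 7.77% between treated males and females, from 23.3%. At an adjusted p of 0.05 the interaction had 2 calls (Vegfa and Apln), against 12.6% of all genes, and the treated males against females 5, against 39.0%. The latter had 1 call with limma-voom (26.3% of all genes), where Apln kept a log2 difference of -1.70 (adjusted p = 0.0406), and 1 with the adipocyte covariate (13.4%). It had 0 with the endothelial covariate (0.835%), 0 without M8 and F10 (10.8%), where the differences were -1.38 for Apln and -0.66 for Nos3, and 0 to 3 without 1 mouse. The count of 0 came without F6 and without F10, where 2004 of 12921 and 1866 of 12922 genes passed. The cause was not tested.

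The numbers of the mice are shared between the sexes of 1 treatment only. Over 11 pairs with the same number the correlation of deviations ran from -0.377 to 0.477 (median 0.242), with 7 above 0.1, and 8 mice were most like their own number. These values may hint at pairing, but mice of unlike number were not set beside them, so they cannot decide whether the numbers pair mice. The labels give the number no meaning, and the test reported had no block. With the replicate block, 1 gene (Apln) differed between treated males and females, against 17.1% of all genes, and Nos3 lost its call at a log2 difference of -0.85 (adjusted p = 0.0139), where it was -0.84 without the block. Also, in vehicle-treated mice the values of males minus females turned to 0.0129 for Cdh5 and 0.0715 for Apln.

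Differences that changed sign had not passed the threshold, and all are log2 values. With limma-voom, Cdh5 turned to 0.0076 for the interaction, 0.0225 in vehicle-treated and 0.0301 in treated mice (males minus females). With the endothelial covariate the interaction was 0.21 for Pecam1, 0.22 for Cdh5 and 0.14 for Tie1. The same covariate gave for vehicle-treated males minus females 0.11 for Cdh5, 0.0754 for Tie1, 0.15 for Aplnr, 0.24 for Apln and 0.0354 for Nos3, and for treated mice 0.0313 for Kdr, 0.15 for Pecam1, 0.33 for Cdh5, 0.0710 for Tek and 0.22 for Tie1. The response of Kdr in females was 0.0724 with the adipocyte covariate and 0.0255 without F3 and F9. Without F3 and F9, vehicle-treated males minus females was 0.0532 for Cdh5, 0.0099 for Tie1 and 0.0158 for Aplnr, and without M8 and F10 the interaction of Pecam1 was 0.0365.

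Without 1 mouse, the female response ran from -0.11 to 0.11 for Kdr and from -0.17 to 0.0414 for Tek. Vehicle-treated males minus females ran from -0.12 to 0.14 for Cdh5, -0.16 to 0.0834 for Tie1, -0.26 to 0.15 for Aplnr, -0.26 to 0.14 for Apln, -0.29 to 0.0079 for Nos3, -0.10 to 0.11 for Flt1, -0.0124 to 0.19 for Tek and -0.0174 to 0.22 for Kdr. The r of Vegfa with the endothelial genes ran from 0.415 to 0.604. In males the log2 change of Tek over Tie1 ran from -0.13 to 0.0122, above 0 without M3, and that of Vegfa over Kdr from -0.54 to -0.30, past an unadjusted p of 0.05 without M7. At 2 to 7 counts per mouse, the size of the fall of Apln in males is set by few reads.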
